A study of Homo sapiens with 3 samples.

Results

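FRMPD4 is a gene of chromosome X with ARID1B peaks called at 6 places in the human cell line HEK293FRT. The members described here were all ARID1B peaks at chrX:11900000-12800000 (genome build hg38), together with any peak within 100 kb of the bodies of the related genes FRMPD1 and FRMPD3. The rule found 6 of the 1792 peaks of replicate 1 and 6 of the 1820 peaks of replicate 2. They overlapped pairwise into 6 regions, of 2291 regions found in either replicate and 1313 found in both. All 6 lay inside FRMPD4, and FRMPD1 and FRMPD3 contributed 0 peaks. The locus was selected on the positions of these same peaks, since earlier results had shown many shared regions nearest to FRMPD4, so the positions and the number of regions are a description and were not tested.

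The series held 3 samples of HEK293FRT, a line derived from human embryonic kidney cells. ARID1B was mapped by ChIP-seq, in which DNA fixed to a protein is pulled down with an antibody and sequenced, in 2 replicates, and 1 input sample was not analysed here. Beyond the line name HEK293FRT, the labels give no genotype change and no treatment for these cells. They name no separate cultures either, so the spread between replicates may be technical. Each replicate has its own list of peaks, each with a whole-number score whose scale is not given in the sources used here. No read counts came with the lists, so depth is unknown. Whether the cells transcribe FRMPD4 was not measured.

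FRMPD4, also known as Preso1, is a scaffold protein of the postsynaptic density of neurons. It carries a FERM domain, which binds membranes and membrane proteins, and a PDZ domain, which binds the tails of other proteins, and it binds PSD-95 and Homer proteins. Mutations in the gene cause X-linked intellectual disability. ARID1B is a DNA-binding subunit of BAF (SWI/SNF), a complex that slides and evicts nucleosomes at promoters and enhancers, and its own mutations cause the intellectual disability syndrome named after Coffin and Siris.

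FRMPD4 spans chrX:11822439-12724523, 902 kb, and is read toward higher coordinates. RefSeq (GRCh38.p14) lists 5 starts for it. The stretches of 250 bases before the first, the second and the fifth of these starts are shown because the regions are described by their distance from them, and none of the starts had a peak within 1 kb. Capitals mark the motifs TGANTCA (AP-1 site) and GGGCGG (GC box), searched on both strands; each sequence is on the plus strand of chromosome X, 5′ to 3′.
FRMPD4 start 1, chrX:11822189-11822438: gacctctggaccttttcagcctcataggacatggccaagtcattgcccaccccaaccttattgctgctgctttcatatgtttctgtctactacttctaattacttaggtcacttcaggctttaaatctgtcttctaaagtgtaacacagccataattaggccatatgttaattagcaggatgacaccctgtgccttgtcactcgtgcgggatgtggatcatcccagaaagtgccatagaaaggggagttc
FRMPD4 start 2, chrX:12065291-12065540: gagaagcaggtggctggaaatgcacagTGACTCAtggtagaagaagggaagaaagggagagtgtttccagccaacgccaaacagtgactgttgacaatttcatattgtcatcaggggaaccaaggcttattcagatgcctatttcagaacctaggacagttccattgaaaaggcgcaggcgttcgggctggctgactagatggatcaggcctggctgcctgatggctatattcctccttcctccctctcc
FRMPD4 start 5, chrX:12138223-12138472: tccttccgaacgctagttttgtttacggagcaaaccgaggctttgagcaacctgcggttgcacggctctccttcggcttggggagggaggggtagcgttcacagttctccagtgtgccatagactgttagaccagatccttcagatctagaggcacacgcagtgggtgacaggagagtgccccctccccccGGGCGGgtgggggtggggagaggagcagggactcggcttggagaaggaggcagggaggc
The second start had 1 AP-1 match, a motif found before 6.57% of the 35116 starts in the table, and the fifth had 1 GC box, found before 42.6%. The first held neither motif. The stretch before the fifth start was 61.2% G and C with 12 CpG dinucleotides. Those before the second and first starts had 50.4% with 4 and 45.2% with 2, against medians of 58.0% and 11 over all starts in the table. The sequences of the regions themselves were not analysed here. A motif match is a description of the letters and says nothing of binding.

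The regions began deep in the gene and ended well before its end. The first lay 191 kb after start 1, and the 6 together spanned 320 kb, from 21.2% to 56.6% of the way along the gene. The last 391 kb of FRMPD4, 43.4% of its length, held no peak of either replicate. Neither did the part of the gene before the first region.

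Region 1 lay at chrX:12013196-12013686, 52.1 kb before start 2, and region 2 at chrX:12081002-12081503, 15.7 kb after start 2. Regions 3 (chrX:12228793-12229242) and 4 (chrX:12240317-12240966) lay 90.5 and 102 kb after start 5, whose position differs from that of start 4 by a few bases. Regions 5 (chrX:12319925-12320351) and 6 (chrX:12333042-12333317) lay 182 and 195 kb after it. Thus 4 of the 6 regions were downstream of all 5 starts, region 2 was downstream of starts 1 and 2 only, and region 1 of start 1 only. The distance of a region is taken from its centre. Exons and introns were not separated by the annotation used.

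**Figure D1:**
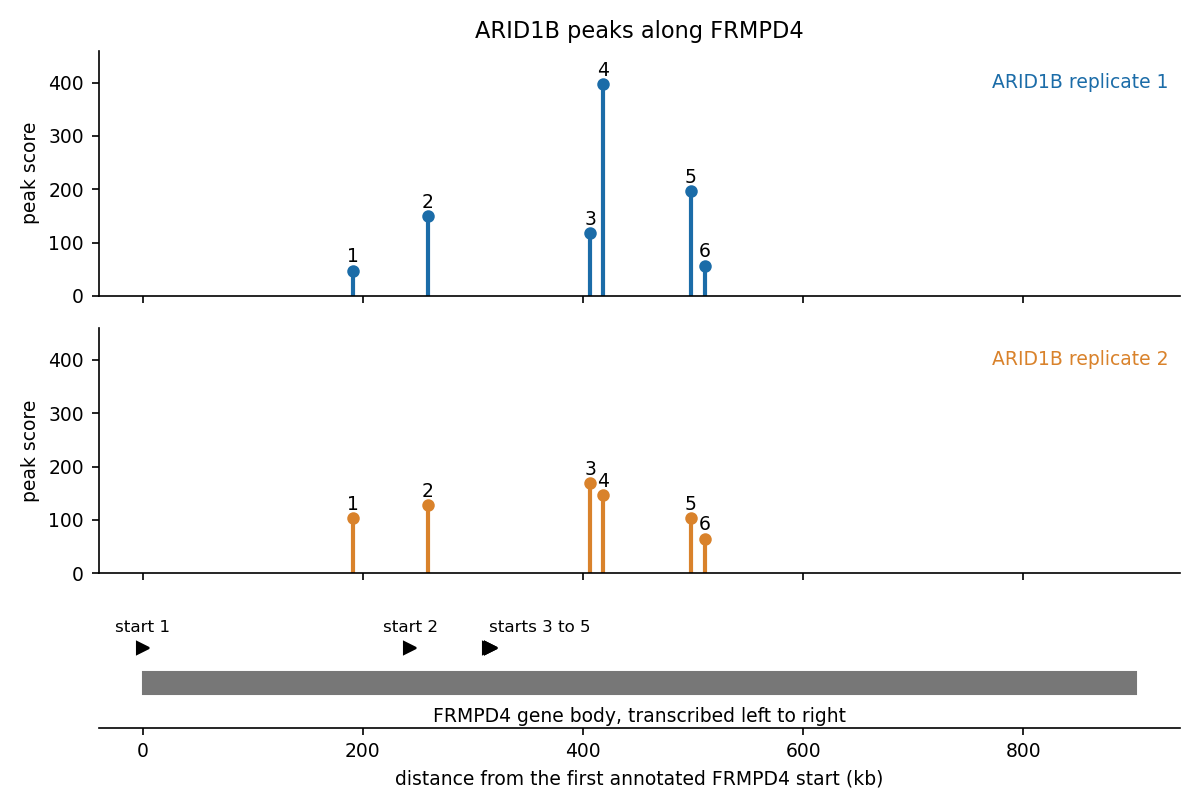
Score of each peak in replicate 1 (upper panel) and replicate 2 (middle panel) against the distance from the first annotated FRMPD4 start in kb; the lower panel shows the gene body as a bar and the annotated starts as arrowheads, and numbers name the regions. The same 6 places appear in both replicates, between 191 and 511 kb, with replicate 1 reaching 397 at region 4 and replicate 2 reaching 169 at region 3.

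The regions were unevenly spaced. Gaps between neighbours were 67.3, 147, 11.1, 79.0 and 12.7 kb in order along the gene, so that regions 3 and 4 formed one close pair and regions 5 and 6 another. The median gap was 67.3 kb, against 821 kb between neighbouring shared regions over all annotated chromosomes. All 5 gaps were under 200 kb, as were 27.3% of the 1288 gaps in all, and 2 were under 20 kb, as were 10.1% in all. These spacings follow from the choice of a locus rich in regions.

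The surroundings were empty for long stretches. On the side of MSL3, which encodes a subunit of a histone acetyltransferase complex and ends 46.7 kb before FRMPD4, the next region lay 2550 kb before region 1 and scored 43 in replicate 1 and 82 in replicate 2. On the side of PRPS2, a gene of nucleotide synthesis that begins 66.9 kb after FRMPD4, the nearest peak lay 1336 kb after region 6. That peak was found in replicate 2 alone, with a score of 37. The nearest region of both replicates on that side lay inside GPM6B, a gene of a neuronal membrane glycoprotein, 1501 kb away, with scores of 58 and 20. Of the other annotated genes in the window, the antisense RNA gene FRMPD4-AS1 lay 38.3 kb from region 6, the pseudogenes RPL17P49 and RN7SKP290 lay 62.5 and 281 kb from it, and none overlapped a region. For all 6 regions FRMPD4 was the only protein-coding gene at that place, and the nearest end of any protein-coding gene lay 191 to 418 kb away (median 398 kb). Over all 1312 shared regions on annotated chromosomes that median was 49.6 kb, and 33.2% of them lay more than 100 kb from every end.

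Each region was called in both replicates. Of the 6 peaks of replicate 1 all 6 overlapped a peak of replicate 2 by at least 1 bp (exact Clopper-Pearson 95% interval 54.1 to 100%, for counting error only), where 73.5% of the whole list did. Of the 6 peaks of replicate 2 all 6 overlapped (54.1 to 100%), where 72.4% did. The locus was selected on its shared regions, so nothing is read from this agreement.

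The paired peaks overlapped by 64.9% or more of either peak. Their overlap was 376 bp at region 1, 330 bp at region 2 and 316 bp at region 3. It was 596 bp at region 4, 313 bp at region 5 and 157 bp at region 6. At regions 1, 3, 4 and 5 the replicate 2 peak lay entirely within the wider replicate 1 peak and covered 76.6%, 70.2%, 91.7% and 73.3% of it. At regions 2 and 6 each peak reached past the other on one side, and the shared part was 85.9% and 82.2% of the replicate 1 peak and 73.7% and 64.9% of the replicate 2 peak. The centres were 8 to 86 bp apart, with a median of 49.5 bp. Regions were 276 to 650 bp wide (median 470.5 bp), against a median of 369 bp over all shared regions.

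**Figure D2:**
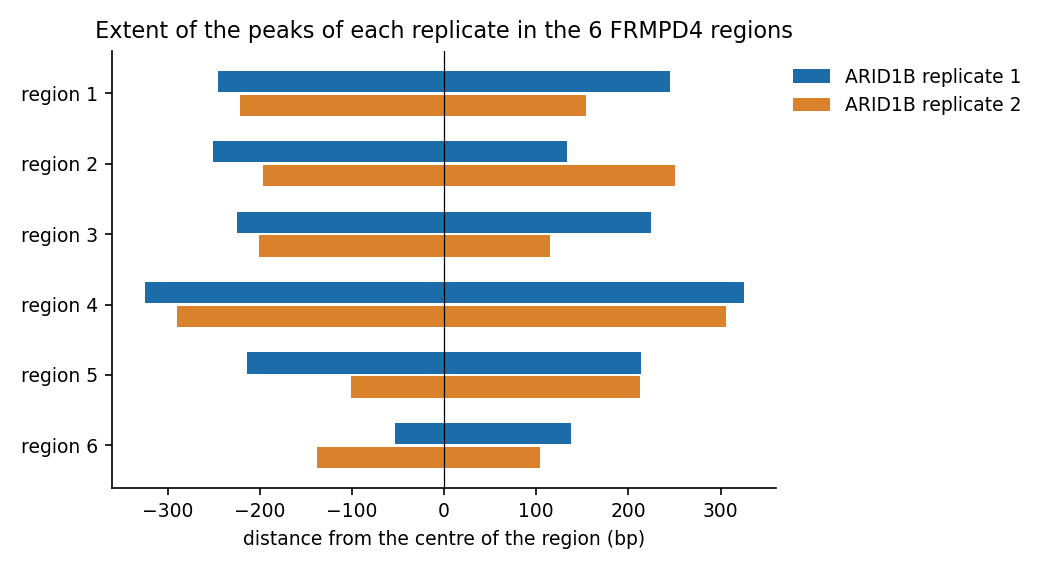
Extent of the replicate 1 and replicate 2 peak of each FRMPD4 region, in bp from the centre of the region (vertical line). The widest region is region 4 with 650 bp and the narrowest region 6 with 276 bp; at 4 of the 6 regions the replicate 2 bar lies within the replicate 1 bar.

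The replicates placed the regions alike but ordered their scores differently. Region 1 scored 47 in replicate 1 and 103 in replicate 2. Region 2 scored 149 and 127, and region 3 scored 117 and 169. Region 4 scored 397 and 146, region 5 scored 196 and 103, and region 6 scored 56 and 64. Region 4 was thus the highest of the locus in replicate 1 and region 3 in replicate 2, while region 6 was the lowest in replicate 2 and region 1 in replicate 1. Scores were higher in replicate 2 at 3 regions and in replicate 1 at the other 3. Over the 6 regions the Spearman correlation of the scores was 0.435, a description over few points that share their libraries. No such value over all shared regions is given here.

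Ranks within each list place these scores. Region 4 ranked 32 of 1792 in replicate 1, above 98.2% of that list, and 363 of 1820 in replicate 2, above 79.8%. On chromosome X it ranked 2 of 36 peaks in replicate 1 and 8 of 39 in replicate 2. Region 5 ranked 197 in replicate 1 (percentile 88.8) and 570 in replicate 2 (percentile 67.9), and region 3 ranked 458 (73.8) and 282 (84.5). Region 2 was the most even of the upper 4, with ranks of 319 (81.9) and 440 (75.7). Region 1 ranked 1344 in replicate 1 (23.6) and 570 in replicate 2 (67.9), and region 6 lay below the middle of both lists, at ranks 1166 (33.6) and 1058 (40.5). In each list 3 of the 6 peaks stood at or above the 75th percentile. Median scores were 133 and 115 at the locus, against 91 and 91 over all shared regions, in replicates 1 and 2 in that order.

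The log2 ratio of the replicate 2 score to the replicate 1 score was -1.44 at region 4, -0.93 at region 5 and -0.23 at region 2. It was 0.19 at region 6, 0.53 at region 3 and 1.13 at region 1. The median was -0.02, against 0.03 over all shared regions, of which the middle 90% ran from -1.17 to 1.27. Region 4 fell outside that range: 2.21% of all shared regions had a ratio as low or lower. Region 1 was inside it, with 7.16% as high or higher. Since the scale of the scores is not given, a ratio compares the scores as listed and not amounts of bound protein.

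**Figure D3:**
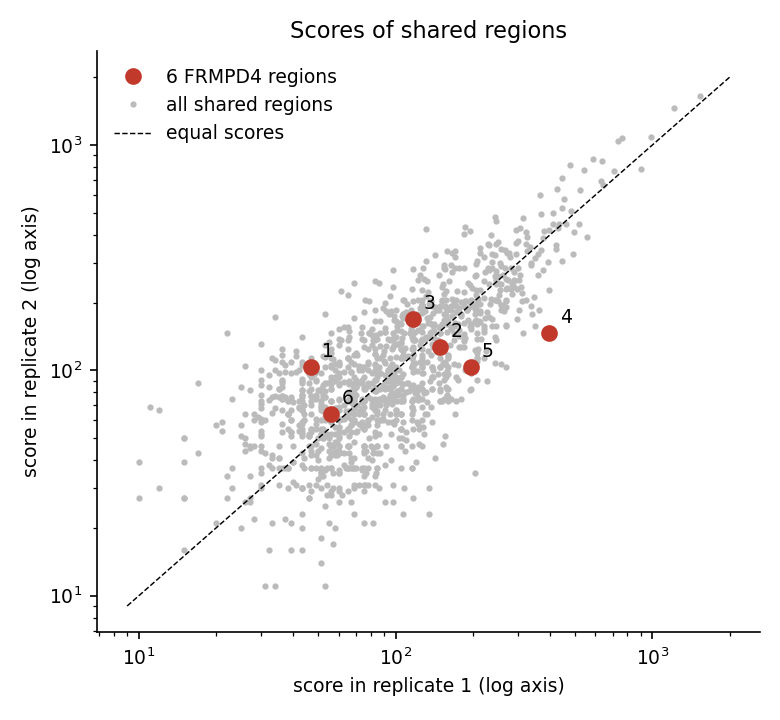
Score in replicate 1 (horizontal, log axis) and replicate 2 (vertical, log axis) of the 6 FRMPD4 regions (large numbered points) and of all 1313 shared regions (small points); the dashed line marks equal scores. Regions 2, 3 and 6 lie near the line, region 1 above it, and regions 4 and 5 below it.

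The FRMPD4 regions lay 15.7 to 195 kb from the nearest of the gene's 5 starts (median 96.4 kb), and 5 of the 6 were more than 50 kb away. Of all shared regions inside protein-coding genes, 570 had a host gene with starts in the table, and their median distance to the nearest start of that gene was 42.5 kb. Of these 47.0% were more than 50 kb away, and 15.6% were within 1 kb, where FRMPD4 had none. A long gene leaves more room far from its starts, and gene length was not matched here.

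**Figure D4:**
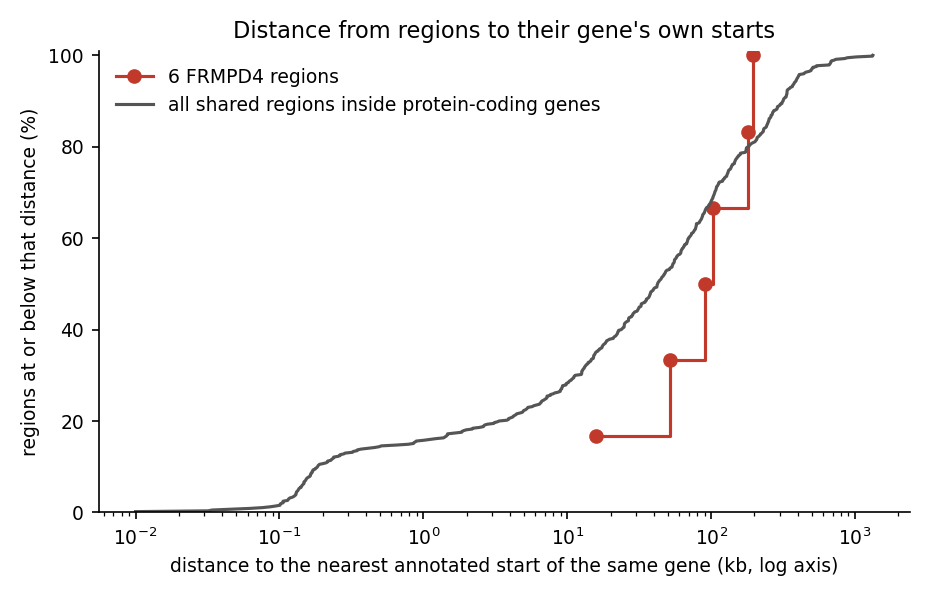
Cumulative share of regions (percent) against the distance from the region's centre to the nearest annotated start of the gene it lies in (kb, log axis), for the 6 FRMPD4 regions (stepped line with points) and the 570 shared regions inside protein-coding genes with annotated starts (plain line). The FRMPD4 line begins at 15.7 kb and ends at 195 kb, while the other line begins well below 1 kb.

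Against other genes of its size FRMPD4 was among the fullest. Of 90 protein-coding genes at least 902 kb long, 26 (28.9%) had a shared region inside and 3 (3.33%) had 6 or more: NKAIN2, a gene of a membrane protein that binds the sodium pump, with 7, and AUTS2, a neurodevelopmental gene, and FRMPD4, with 6 each. FRMPD4 held 6.65 shared regions per Mb, and the other 89 genes together held 49 regions, or 0.427 per Mb. NKAIN2 had 6.85 per Mb. Among shorter genes with 6 or more regions, RAD51B had 6.95 per Mb, SLC25A21, a mitochondrial carrier gene, 12.1, GMDS, a fucose metabolism gene, 14.5, and ZNF608, a zinc-finger gene, 80.4. The density was 0.443 per Mb over chromosomes 1 to 22 and X, and 0.142 per Mb over the rest of chromosome X. The 6 regions were 21.4% of the 28 shared regions on chromosome X, in a gene that takes up 0.579% of the chromosome's annotated span. Each of 11 other protein-coding genes of that chromosome with a shared region inside had 1, among them DMD, the dystrophin gene, which is 2220 kb long. The locus was chosen for its count, so nothing is read from these figures beyond their size.

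**Figure D5:**
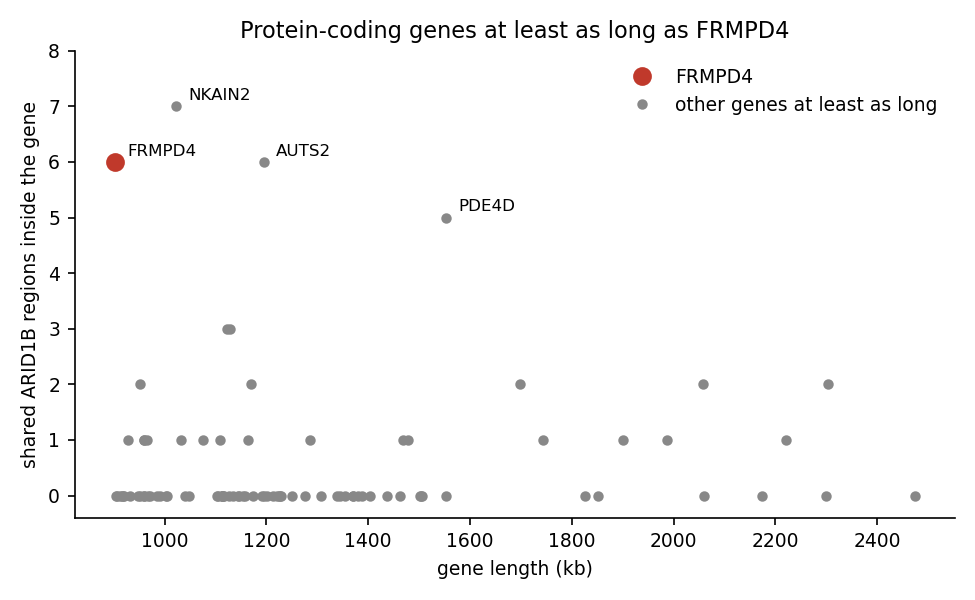
Number of shared ARID1B regions inside each protein-coding gene at least as long as FRMPD4 (vertical) against gene length in kb (horizontal). FRMPD4 (large point) has 6 regions, NKAIN2 has 7 and AUTS2 has 6, and 64 of the 90 genes have 0.

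Among long genes with a like number of regions the layout differed. The FRMPD4 regions spanned 320 kb with a median gap of 67.3 kb. Those of NKAIN2 spanned 981 kb of its 1022 kb with a median gap of 117 kb, those of AUTS2 453 kb with 109 kb, and those of RAD51B, a recombination gene of 863 kb with 6 regions, 127 kb with 24.2 kb. FRMPD4 and NKAIN2 held 0 regions of 1 replicate alone, and AUTS2 and RAD51B held 5 each beside their 6 shared ones. Over the whole series 1313 of the 2291 regions of either replicate were found in both. The nearest region to an annotated start of the same gene was 15.7 kb away in FRMPD4, 37.1 kb in NKAIN2, 220 kb in AUTS2 and 266 kb in RAD51B. The annotation lists 5 starts for FRMPD4, 1 each for NKAIN2 and AUTS2, and 2 for RAD51B, so these distances are not on equal terms. From its first start alone, the nearest FRMPD4 region was 191 kb away. None of these genes had a region within 1 kb of its starts. PDE4D, a gene of 1553 kb with 5 regions, was left out of this comparison. Its nearest region did lie within 1 kb, at -0.892 kb, before a start. Median scores in replicates 1 and 2 were 133 and 115 in FRMPD4, 127 and 138 in NKAIN2, 106 and 124 in AUTS2, and 83.5 and 75.5 in RAD51B. These differences were not tested.

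The other FRMPD genes were without peaks. FRMPD1 (9:37603229-37746904, 144 kb), whose protein binds the G-protein regulator GPSM1, had 0 peaks in each replicate inside it or within 100 kb. The nearest peak lay 137 kb before the gene at 9:37465523-37465949 and was found in replicate 2 alone, with a score of 71. The nearest region of both replicates lay 674 kb away inside PAX5, with scores of 51 and 30. FRMPD3 (X:107449652-107605251, 156 kb) also had 0 peaks, and the nearest region on chromosome X was 21799 kb away, with scores of 27 and 34. FRMPD2 (10:48156559-48274895, 118 kb), which encodes a scaffold of epithelial cell contacts and was added to the comparison, had its nearest peak 966 kb away. It was found in replicate 1 alone, with a score of 58, and the nearest region of both replicates was 1969 kb away, with 121 and 82. FRMPD1, FRMPD2 and FRMPD3 are far shorter than FRMPD4, and a region of either replicate lay inside or within 100 kb of 25.5% of the 3355 protein-coding genes of 100 kb or more, so an empty neighbourhood is the common case for such genes. A list of called peaks does not show that ARID1B is absent from these loci.

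The stretches before the starts of these relatives ranged from 39.6% to 84.4% G and C, and those of FRMPD4 from 30.4% to 61.2%. Their CpG dinucleotides numbered 1 to 40 in the relatives and 1 to 12 in FRMPD4. The second start of FRMPD1 was preceded by 84.4% G and C, 40 CpG dinucleotides and 2 GC boxes, and its other starts by 53.6% and 48.4% with 0 GC boxes. The only start listed for FRMPD3 lies inside the gene body, at X:107522450. It had 47.6% and 1 TATAAA match, a motif before 10.7% of all starts. The first start of FRMPD2 had 1 AP-1 match, and its second had 2 TATAAA matches and 1 CCAAT match. Neither GC box nor AP-1 match was found before starts 1 and 3 of FRMPD4, and CCAAT, found before 32.0% of all starts, was before none of its 5. Both strands were searched for each motif.

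Genes of proteins that work with or resemble FRMPD4 were then counted. Of 50 genes of FERM domain proteins, 12 (24.0%) had a shared region inside or within 100 kb, against 11.8% of all 19866 protein-coding genes. The listed genes were longer, with a median of 145 kb against 24.5 kb, and among those of 100 kb or more it was 8 of 31 against 16.9% of all genes of that length. Inside the gene it was 7 of 50, against 2.8% of all protein-coding genes, and 6 of 31 of the longer ones, against 9.78%. FRMPD4 itself is in each of these counts and was chosen for its regions. Without it they are 11 of 49 (22.4%) and 7 of 30 within 100 kb, and 6 of 49 and 5 of 30 inside the gene. Of these 6, PTPN14, a phosphatase gene of the Hippo pathway, held 3 regions, the highest at 1:214513967-214514651 with scores of 269 and 204. MYLIP, a ubiquitin ligase gene that controls the LDL receptor, had scores of 169 and 158, and FRMD6, a Hippo pathway gene, 90 and 122. MYO10, a myosin gene of filopodia, had 67 and 75, PTPN13, another phosphatase gene, 78 and 60, and PTK2, the focal adhesion kinase gene, 105 and 55. Outside the gene but within 100 kb, FERMT3, a kindlin gene of blood cells, had the highest, 157 and 224 at 19.7 kb. That region lay at -0.202 kb, before a start of another gene, STIP1. RDX, a gene linking actin to the membrane, had 110 and 80 at 8.92 kb, and FRMD1 had 69 and 75 at 54.2 kb.

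Of 46 genes of postsynaptic scaffolds, their receptors and partners, 6 (13.0%) had a shared region inside or within 100 kb, against 11.8% of all protein-coding genes, and 4 of the 31 that were 100 kb or longer did, against 16.9%. With the peaks of replicate 1 alone it was 10 (21.7%), against 14.1% of all protein-coding genes, and with those of replicate 2 alone 9 (19.6%), against 16.6%. Inside the gene it was 2 of 46, against 2.8%, and 2 of 31 of the longer ones, against 9.78%. These were NRXN3, a presynaptic adhesion gene with 2 regions (153 and 108 at the higher), and DLGAP1, a postsynaptic scaffold gene (65 and 136). GRIP2, a gene of an AMPA receptor scaffold, had 117 and 139 at 49.2 kb. GRIN1, the gene of the obligatory NMDA receptor subunit, had 116 and 140 at 72.2 kb. That region lay at -0.166 kb, before a start of another gene, TUBB4B. TIAM1, a Rac activator gene, had 140 and 93 at 30.1 kb, and SHANK1, a master scaffold gene, 39 and 109 at 74.5 kb. The region near SHANK1 lay inside another gene, ACP4, 4.46 kb after one of its starts.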

How the data were processed

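ARID1B ChIP-seq of HEK293FRT cells gave 1 deposited peak list per replicate, and the input was not analysed. Per the submitters' processing notes, the genome build was hg38 and the tools named are MACS2 2.1.2, Bowtie2 2.3.4.1 and bcl2fastq 2.20.0.422. Settings, threshold, duplicate handling and the role of the input are not stated in those notes. Each deposited peak carries a score given by the authors, which served to rank peaks inside a list and, for shared regions, to compare the lists as a log2 ratio. PCR duplicates, if kept, could raise it. Depth is unknown.

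Starts were converted to count from 1. Peaks overlapping by at least 1 bp were joined into regions, and a region carries the highest score of each list. A percentile is the share of a list that scores lower, with ties counted in part. Genes came from a RefSeq table of GRCh38.p14, of which 58961 genes on assembled chromosomes were kept, 19866 of them protein-coding. Transcription starts and sequences came from RefSeq promoter windows, which covered the FRMPD genes. All 46 and 50 symbols of the gene lists matched. The members, lists and comparisons were chosen with earlier results of these data known. Named genes were the FRMPD genes, those in the window, list members with a region inside the gene or within 1 kb, and the first 10 per list by percentile. NKAIN2, AUTS2, RAD51B, PDE4D, SLC25A21, GMDS, ZNF608, DMD, STIP1, TUBB4B, ACP4 and the genes at neighbouring regions were named after their values were seen. No test was run: 1 list per replicate and no control list leave nothing to compare over samples. The overlap and counting steps were tested on simulated data. Python 3.11, SciPy 1.17.1.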

Additional observations from a re-analysis of the deposited data

How the results depend on the processing

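The 6 FRMPD4 regions remained 6 shared regions under 50% reciprocal overlap, with centres within 200 bp, in the gene body alone and with 100 kb on each side. With only the upper 50% of each list by score 4 were shared, and 5 were found in either list. Over the whole lists the same cut gave 650 shared regions, against 1313 with all peaks. Each replicate alone gave 6. Around FRMPD1 the 0 regions became 1 within 200 kb and 2 within 500 kb, and FRMPD3 stayed at 0 within 500 kb. Inside the gene alone, the postsynaptic count was 2 in place of 6 and the FERM domain count 7 in place of 12. Leaving out a replicate gave 9 of 46 postsynaptic genes from replicate 2 alone and 10 of 46 from replicate 1 alone. Each replicate alone gave 13 of 50 FERM domain genes, FRMPD4 among them. Of all protein-coding genes, 14.1% had a peak inside or within 100 kb with replicate 1 alone and 16.6% with replicate 2 alone. With only those upper peaks, 4 of 5 replicate 2 peaks in the window (80%) were found in replicate 1. The share of replicate 1 peaks found in replicate 2 stayed at 100%. No such share over the whole list with that cut is given here. The density was 5.44 per Mb with 100 kb on each side of the gene. No paired analysis was possible because the lists of 1 group hold no second group to pair with. Without read counts, a peak that is missing cannot be told from one just under the threshold.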
